A study of Mus musculus with 4 samples.

Results

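The LDL receptor-related genes examined here are 10 genes taken by name from the gene table of a mouse macrophage RNA sequencing study, out of 34745 genes in the table. They are Lrp1, Lrp4, Lrp5, Lrp6, Lrp8, Lrp10, Lrp11, Lrp12, Lrpap1 and Vldlr, chosen by name and not by a threshold on their values, although earlier results of these data were known. The study asked how G3BP1, the RNA-binding scaffold protein of stress granules (SGs), affects the uptake of apoptotic cells by macrophages, and it placed the Lrp1 transcript among the RNAs that G3BP1 binds. Total RNA was sequenced from cultured macrophages in 4 libraries, 2 labelled WT and 2 labelled KO, numbered 1 and 2 within each genotype. By the study's text, the WT controls were G3bp1f/f mice and the KO were G3bp1mac-/- mice, in which a Cre recombinase driven by Lyz2 deletes the floxed gene in the myeloid lineage, granulocytes included. The macrophages were grown from bone marrow, and both genotypes were kept in DMEM with fetal bovine serum. The labels give neither the age of the mice nor a stress treatment, and they do not say whether the libraries of a genotype came from separate animals or cultures. The p-values therefore measure only the spread between these libraries, which may be technical.

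Receptors of the LDL receptor family are single-pass membrane proteins whose outer part carries LDL receptor class A repeats, short cysteine-rich modules in which acidic residues hold calcium and bind ligands. LRP1 takes up lipoprotein remnants, protease and inhibitor complexes and apoptotic cells, and the chaperone RAP, the product of Lrpap1, keeps it and its relatives free of ligand until they leave the endoplasmic reticulum. LRP5 and LRP6 are coreceptors for Wnt with the Frizzled receptors, LRP4 is a receptor for agrin and a modulator of Wnt signalling, and LRP8 and VLDLR bind reelin and apolipoprotein E.

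The study named the octamer GANGANGA, where N is any base, as a motif of RNA bound by G3BP1 after stress. It was searched on the sense strand of the main annotated transcript of each gene (GENCODE M21, GRCm38), with overlapping matches counted separately. The windows below, each of 30 bases within 1 coding exon, show how the matches sit in the family. All the Lrp1 windows of this kind with a cysteine codon directly or 1 codon after the match are shown except 1 that overlaps the last of them, with 1 window each of Vldlr and Lrp8 for comparison. Capitals mark the 8 bases of the match.
Lrp1 exon 18, chr10:127583846-127583875, minus strand: cctgtgatctgGATGATGActgtggggacc
Lrp1 exon 22, chr10:127578111-127578140, minus strand: aagataactccGACGAGGAgaactgtgagg
Lrp1 exon 50, chr10:127557215-127557244, minus strand: cgtgtgacaagGAGGATGActgtgagaacg
Lrp1 exon 63, chr10:127551693-127551722, minus strand: agtgtgacacgGAGGACGActgtggggatc
Lrp1 exon 67, chr10:127549935-127549964, minus strand: agtgtgacggaGAAGATGActgtggggatg
Lrp1 exon 70, chr10:127548321-127548350, minus strand: tggacggcagtGACGAGGAagcctgtggca
Lrp1 exon 71, chr10:127546864-127546893, minus strand: agtgtgatggaGAGGACGActgtggggaca
Lrp1 exon 73, chr10:127546003-127546032, minus strand: gcgatggctccGATGAAGAagattgcagca
Vldlr exon 2, chr19:27230265-27230294, plus strand: aatgtgatggaGATGAAGActgtgcggatg
Lrp8 exon 5, chr4:107846296-107846325, plus strand: tgtgcgatggtGACGATGActgcggcgacg

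The Lrp1 transcript, 14888 bases in 89 exons, held 20 matches of the motif at 18 separate sites. Of these, 19 lay in the coding sequence and 1 in the 5' UTR. This is 1.34 matches per kb, a density above that of 73.8% of the tested genes. Length matters for the mere presence of a match, since all 87 tested transcripts of like length (at least 0.8 times its length, and at most its length divided by 0.8) held at least 1, and so did 79.6% of the 11608 tested genes with a coding main transcript. Lrp8 had the densest transcript of the family with 14 matches, or 3.07 per kb. Lrp12 followed with 1.70 per kb, Lrp10 with 1.42, Lrp4 with 1.26, Lrp11 with 1.18 and Vldlr with 1.00. Lrp5 had 0.775 per kb and Lrp6 had 0.534, and Lrpap1, which encodes the chaperone and not a receptor, had a single match (0.335 per kb). The density thus lay above the median of the tested genes, 0.708 per kb, for 8 of the 10 genes.

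**Figure D1:**
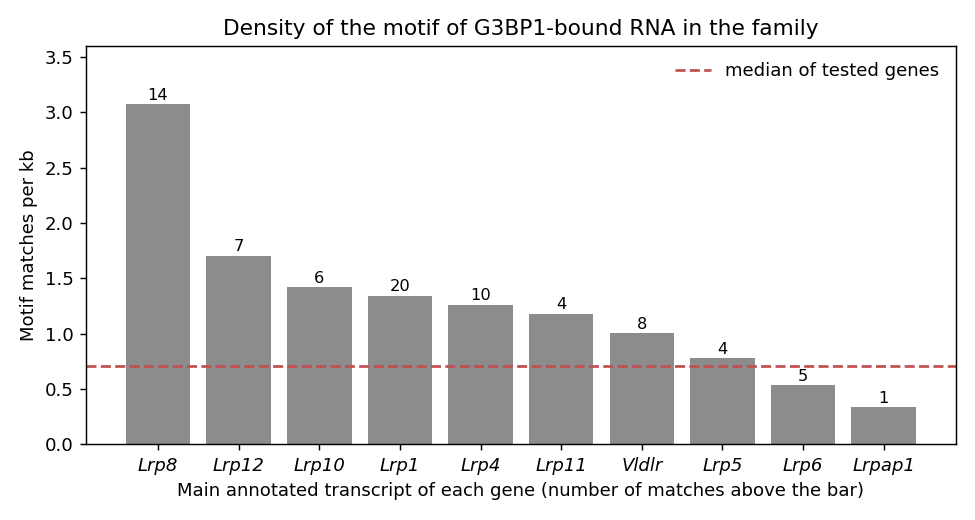
Matches of the motif GANGANGA per kb of the main annotated transcript of each family gene (bars, with the number of matches above each), beside the median of the tested genes (0.708 per kb). Lrp8 stands highest at 3.07 per kb, Lrp1 lies at 1.34, and Lrp6 and Lrpap1 lie below the median.

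Most coding matches lay in the reading frame, as they did in the tested genes at large. In frame, a match covers 2 codons and the first bases of the next codon, and each of these encodes aspartate or glutamate. Of the 79 matches in the family 69 were coding, and 62 of these (89.9%) began on the first base of a codon, against 80.6% of the 35908 coding matches of the tested genes. A cysteine codon (TGC or TGT) came directly after these codons or 1 codon later in 28 of the 62 (45.2%), where this was so for 2.16% of in-frame matches in the tested genes. The cysteine pattern was looked for after the sequences had been seen and carries no test. In Lrp1 it held for 12 of 18 in-frame matches, in Lrp4 for 5 of 8, in Lrp8 for 4 of 12, and in Lrp12 and Vldlr for 2 of 6 and 2 of 7. It held for 1 of 5 in Lrp10, 1 of 3 in Lrp5, 1 of 2 in Lrp11 and 0 of 1 in Lrp6, where 2 of 4 coding matches in Lrp11 and 1 of 3 in Lrp6 were in frame. It held for 0 of the 16 in-frame matches in Dync1h1 and 0 of the 6 in Igf2r, the other transcripts the study named beside Lrp1. At the rate of 2.16% in the tested genes, a count of 0 in so few matches does not mark these transcripts out. A match of letters is a description of the transcript and does not show binding.

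The libraries held between 16724241 and 19747909 gene counts, and the filter on low counts kept 12418 genes, all 10 of the family among them. In CPM (counts per library total, scaled between libraries), the upper limit behind a count of 0 was 0.152 to 0.188, counting error only. The targeted gene G3bp1 had 1691 and 2875 WT counts and 1307 and 2296 KO counts, so that KO kept 65.6% of the WT level (log2 fold change -0.61, SE 0.40, edgeR adjusted p 0.904). The KO to WT ratios of libraries with the same number were alike, -0.57 for number 1 and -0.63 for number 2 (log2). With a term for the replicate number (a replicate block), the edgeR adjusted p was 0.0853 at a log2 change of -0.60, and with a gene length correction as well it was 0.00378 at -0.68, both short of the fold limit for a call. Counts per gene cannot show which exons were deleted, and every direction given here rests on the labels. The libraries numbered 1 differed from those numbered 2 on the first principal component (57.4% of the variance), and the genotypes differed on the second (34.3%). The KO to WT ratio is therefore also given separately for libraries numbered 1 and 2 where a result turns on it. Each such ratio compares 1 library with 1 library and has no error of its own.

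The family spanned a wide range of levels in these macrophages. Per length, in the authors' FPKM (fragments per kilobase of gene length, scaled by library total), Lrp12 was the most abundant gene at 62.5 to 98.4 over the 4 libraries. Lrpap1 came second at 36.6 to 43.2, followed by Lrp1 at 15.02 to 28.3 and Lrp10, a receptor of the Golgi and endosomes, at 14.7 to 21.2. These 4 genes held between 96.7% and 97.4% of the summed FPKM of the 10 genes in every library. Lrp6 lay well below them at 1.97 to 3.41 FPKM. Lrp11 (0.693 to 1.18), Lrp4 (0.533 to 1.25) and Lrp5 (0.216 to 0.621) came next, and the reelin receptors Lrp8 (0.0748 to 0.252) and Vldlr (0.0247 to 0.128) were lowest. Between neighbours in this order the ranges overlapped for Lrp1 and Lrp10, for Lrp11 and Lrp4, for Lrp4 and Lrp5, for Lrp5 and Lrp8 and for Lrp8 and Vldlr. Lrp1 and Lrp10 changed places between libraries, as did Lrp11 and Lrp4, and these neighbours did not differ beyond their spread. Within each library, however, Lrp4 lay above Lrp5, Lrp5 above Lrp8 and Lrp8 above Vldlr. The steps from Lrp12 to Lrpap1, from Lrpap1 to Lrp1, from Lrp10 to Lrp6 and from Lrp6 to Lrp11 had no overlap.

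**Figure D2:**
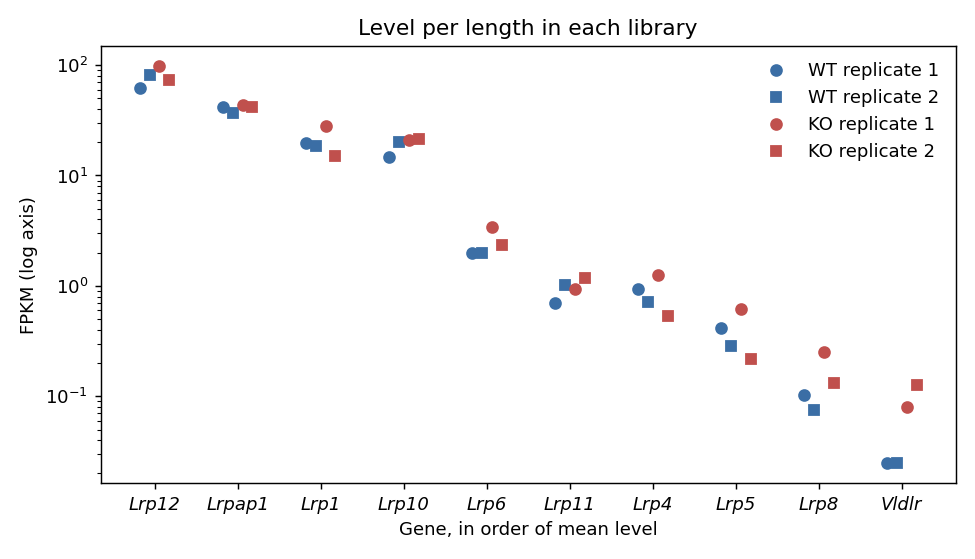
FPKM of the 10 family genes in each of the 4 libraries on a log axis, ordered by mean level. Lrp12 lies between 62.5 and 98.4 in every library and Vldlr between 0.0247 and 0.128.

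Relative to Lrp1, the Lrp12 FPKM was 3.19 and 4.40 times as high in WT and 3.47 and 4.92 times as high in KO. The FPKM of Lrp1 relative to its chaperone Lrpap1 was 0.472 and 0.504 in WT, and 0.655 and 0.364 in KO. Both of these ratios overlapped between the genotypes, and the KO libraries lay on either side of the WT libraries for Lrp1 relative to Lrpap1. The length behind a deposited FPKM can exceed that of the main transcript, as for Lrp1 with 20915 against 14888 bases. With counts per kb of the main transcript in place of FPKM, an alternative chosen after seeing the data, the order of the 10 mean levels was the same, as it was with TMM-scaled totals. In WT replicate 1, however, Lrpap1 then lay slightly above Lrp12 (80.9 against 78.4 CPM per kb).

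KO and WT libraries were then compared to ask whether RNA levels of the family differed between the labelled genotypes. In edgeR's quasi-likelihood test 0 of the 10 genes were called at the study's limits (adjusted p under 0.05, fold change over 2 in either direction), against a background of 0% of the 12418 tested genes. The largest difference was that of Vldlr, whose unadjusted p was under 0.05, as it was for 4.64% of the tested genes in the direction of higher KO and for 6.63% in either direction. The KO libraries both exceeded the WT libraries for 3 genes, Lrp6, Lrp8 and Vldlr, where the background was 19.9%. They lay below them for 0 genes, with a background of 16.9%. The median log2 fold change over the family was 0.11, with 8 of 10 values above 0, and over all tested genes it was 0.041, with 54.6% above 0. In bulk RNA, a change in the number of cells of a type cannot be told apart from a change in RNA per cell.

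**Figure D3:**
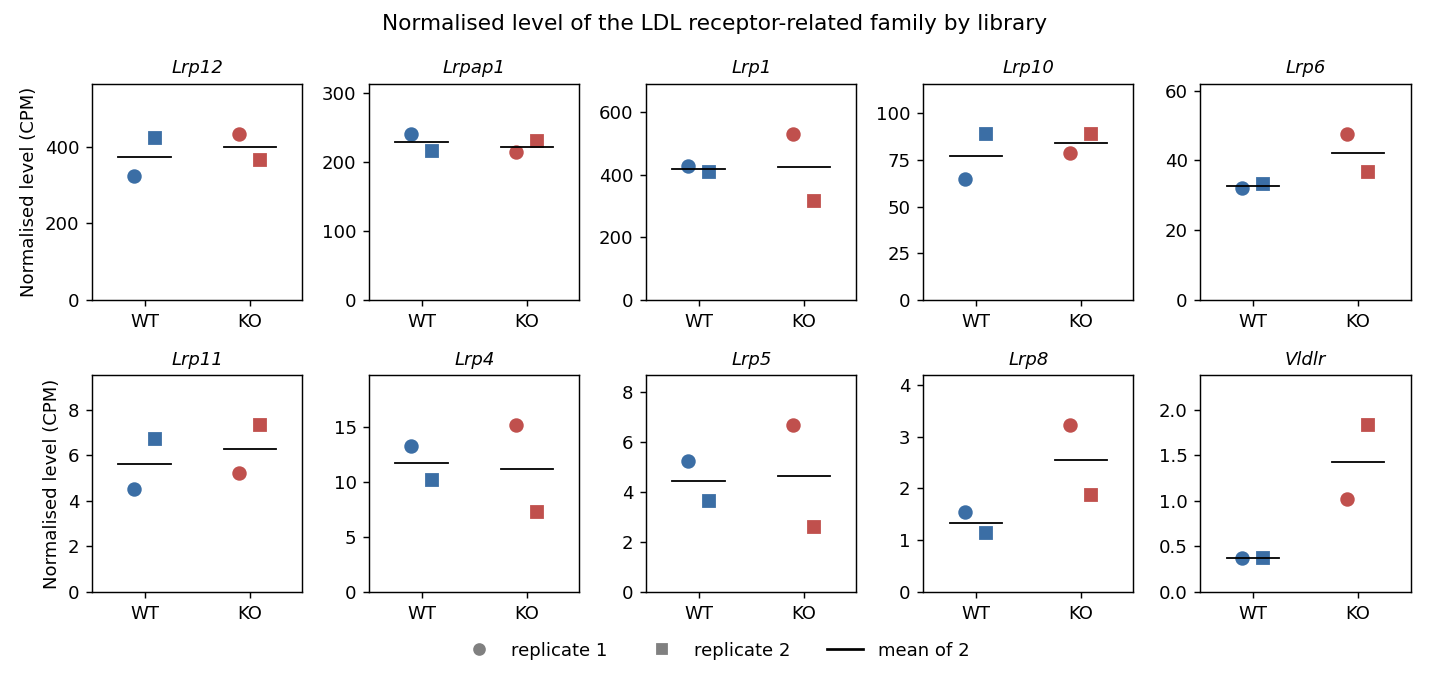
Normalised level in CPM of each family gene in the WT and KO libraries, with circles for replicate 1, squares for replicate 2 and a line at the mean of 2. The groups separate for Lrp6, Lrp8 and Vldlr, and KO replicate 1 is the highest library for 6 of the 10 genes, among them Lrp1 at 531 CPM.

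Of the endocytic receptor and its chaperone, neither separated the genotypes. Lrp1 (ENSMUSG00000040249, chromosome 10, 127538161 to 127621148) had 429 and 409 CPM in WT against 531 and 315 CPM in KO. The WT libraries lay close together and between the KO libraries, of which replicate 1 was the highest and replicate 2 the lowest of the 4. The fitted log2 fold change was 0.014 (95% confidence interval -0.79 to 0.82), and its sign depended on the library left out, at -0.41 when KO replicate 1 was omitted and 0.34 when KO replicate 2 was. The counting interval of each library was narrow, 521 to 542 CPM in KO replicate 1 and 307 to 323 CPM in KO replicate 2 (exact Poisson, 95%). Lrpap1 (ENSMUSG00000029103, chromosome 5, 35091501 to 35105766) was the steadiest of the family, with 241 and 215 CPM in WT against 215 and 230 CPM in KO. Its groups overlapped, and the log2 fold change of -0.038 (SE 0.23, 95% confidence interval -0.62 to 0.54) had an edgeR adjusted p of 0.990.

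Among the Wnt coreceptors, Lrp6 (ENSMUSG00000030201, chromosome 6, 134446476 to 134566965) had 32.2 and 33.2 CPM in WT against 47.7 and 36.7 CPM in KO. Both KO libraries were higher, by 0.57 on the log2 scale within number 1 and by 0.15 within number 2. The fitted log2 difference of 0.37 (SE 0.24, 95% interval -0.25 to 0.98) did not pass the test, as its edgeR adjusted p was 0.904. The 500 tested genes nearest to Lrp6 in length had median ratios of 0.37 within number 1 and 0.043 within number 2. Lrp5 (ENSMUSG00000024913, chromosome 19, 3584828 to 3686564) had 85 and 58 WT counts and 124 and 51 KO counts, with the KO libraries above and below both WT libraries. Its mean level was 4.44 ± 1.13 CPM in WT against 4.62 ± 2.87 CPM in KO (SD, n = 2 each). Lrp4 (ENSMUSG00000027253, chromosome 2, 91457511 to 91513779), which also modulates Wnt signalling, was alike in this, with 216 and 163 WT counts and 283 and 143 KO counts. The fitted log2 change was 0.057 for Lrp5 (95% interval -1.29 to 1.40) and -0.069 for Lrp4 (-1.14 to 1.00), so both intervals leave room for changes of either sign.

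The reelin and apolipoprotein E receptors had the largest fitted differences of the family, at low counts. Vldlr (ENSMUSG00000024924, chromosome 19, 27216484 to 27254231) had 6 counts in each WT library, and 19 and 36 counts in KO. The counting intervals were 2.20 to 13.1 for a count of 6, 11.4 to 29.7 for 19 and 25.2 to 49.8 for 36 (exact Poisson, 95%). In CPM the level was 0.373 ± 0.00472 in WT and 1.42 ± 0.572 in KO (SD, n = 2 each), or 382% of WT. The groups thus did not overlap, and the small SD of WT reflects equal counts, not the counting error. On the log2 scale the fitted change of 1.91 (SE 0.55, 95% interval 0.51 to 3.32) had an unadjusted p of 0.0167 and an edgeR adjusted p of 0.493, so Vldlr did not pass the test. The ratio was 1.38 within number 1 and 2.18 within number 2. It was over 1 within both numbers for Vldlr alone of the family, against a background of 3.83% of tested genes.

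With a term for the replicate number added to the model, Vldlr was called, at a log2 fold change of 1.89 and an edgeR adjusted p of 0.0182, where 5.35% of the tested genes were called. It was the single call in the family there, and again with a length correction added (5% of tested genes). The edgeR exact test and the DESeq2 Wald test called 0 of the 10 genes, against 1.84% and 1.46% of the tested genes. The labels do not tie the replicate number to a batch or day, and over all alternatives the adjusted p of Vldlr ran from 0.0182 to 1.00. Lrp8 (ENSMUSG00000028613, chromosome 4, 107802261 to 107876840) had 25 and 18 WT counts and 60 and 37 KO counts. Its groups did not overlap, and the mean level was 1.33 ± 0.291 CPM in WT against 2.55 ± 0.946 CPM in KO (SD, n = 2 each). The fit gave a log2 change of 0.93 (SE 0.46, 95% interval -0.23 to 2.09, edgeR adjusted p 0.848), and the ratios were 1.05 within number 1 and 0.71 within number 2. The 500 genes nearest in length to Lrp8 or to Vldlr had median ratios of 0.38 within number 1 and 0.053 within number 2, below the ratios of both receptors.

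**Figure D4:**
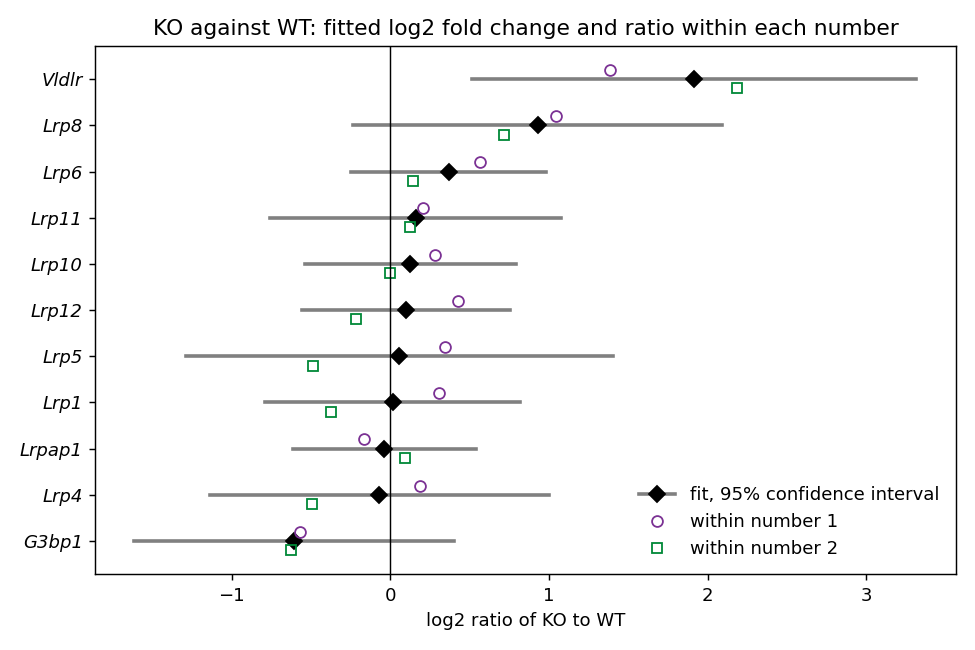
Log2 ratio of KO to WT for the family genes and G3bp1, with the fitted log2 fold change (diamond), its 95% confidence interval (line) and the ratio within number 1 (circle) and number 2 (square). The interval of Vldlr (0.51 to 3.32) lies above 0, and those of the other 9 family genes include 0.

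Summed levels of genes that mark other cell types also differed between the genotypes, although 0 of these genes were called. The summed level of 12 stromal markers, none at 0, was 82.6 to 96.1 CPM in WT and 339 to 362 CPM in KO, and in 10 of the 12 the KO libraries both exceeded the WT libraries (19.9% of all tested genes). Endothelial markers summed to 24.3 to 33.4 CPM in WT and 37.7 to 56.9 CPM in KO, but the defining genes Cldn5, Tek and Emcn were at 0 in all libraries. The part of these cells in the values of Vldlr and Lrp8 was not tested. The 12 macrophage markers summed to 25395 to 26909 CPM in WT and 21590 to 25351 CPM in KO, abundant in each library. The lowest WT sum lay barely above the highest KO sum, and of the 12 genes 1 lay above and 1 below WT in both KO libraries. Dendritic cell markers summed to 270 to 383 CPM in WT and 393 to 425 CPM in KO, with 1 gene above and 1 below among 4 tested. Sums that were also lower in KO were those of neutrophils (25.3 to 26.3 against 7.40 to 11.4 CPM, with Mpo and Elane at 0), mast cells and basophils (41.2 to 43.2 against 21.1 to 25.1 CPM), B cells (43.8 to 47.4 against 23.8 to 27.4 CPM), T and NK cells (2.77 to 2.89 against 1.61 to 2.44 CPM) and erythroid cells (7.65 to 10.7 against 1.88 to 2.59 CPM, with Car1 at 0).

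The remaining receptors overlapped between genotypes. Lrp12 (ENSMUSG00000022305, chromosome 15, 39870603 to 39943994), the most abundant per length, had 322 and 423 CPM in WT against 434 and 365 CPM in KO. WT replicate 1 was the lowest and KO replicate 1 the highest library, and the groups overlapped. The fitted log2 change was 0.10 (SE 0.26, 95% interval -0.56 to 0.76). Lrp10 (ENSMUSG00000022175, chromosome 14, 54464164 to 54471497) had 1052 and 1421 WT counts and 1468 and 1756 KO counts, at 77.0 ± 17.2 CPM in WT against 83.9 ± 7.38 CPM in KO (SD, n = 2 each). The fitted log2 change was 0.13 (SE 0.26). Of its exons, 475 bases overlap the antisense gene Gm10366, whose reads cannot be told apart where counting does not use the strand. Lrp11 (ENSMUSG00000019796, chromosome 10, 7589800 to 7625483) had 73 and 107 WT counts and 97 and 144 KO counts, with a fitted log2 change of 0.16 (SE 0.36). For both Lrp10 and Lrp11, replicate 2 was higher than replicate 1 in each genotype.

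The ratios were also set out by number, with no test of the difference between the numbers. The difference between numbers was larger than that between genotypes for 5 of the 10 genes, against a background of 54.6%. Within number 1 the ratio of KO to WT was above 0 for 9 of the 10 genes, with a background of 57.2% and a median of 0.32 (0.11 over all tested genes). Within number 2 it was above 0 for 6, with a background of 49.7% and a median of 0.046 (-0.0015 over all tested genes). The ratios had opposite signs in 5 genes, Lrp1, Lrp4, Lrp5, Lrp12 and Lrpap1, against a background of 35%. KO replicate 1 was the highest of the 4 libraries for 6 genes, Lrp1, Lrp4, Lrp5, Lrp6, Lrp8 and Lrp12, where this was so for 32% of the tested genes. From KO replicate 1 to KO replicate 2, the log2 difference was -0.75 for Lrp1, -1.06 for Lrp4, -1.35 for Lrp5, -0.77 for Lrp8, -0.38 for Lrp6 and -0.25 for Lrp12. The medians of the genes nearest in length were -0.17, -0.12, -0.11, -0.13, -0.094 and 0.014 for the same comparison, in the same order. The difference was above 0 for Vldlr (0.83), Lrp11 (0.49), Lrp10 (0.18) and Lrpap1 (0.095).

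Within number 1 the ratio moved with gene length, from a median of -0.79 in the shortest 621 tested genes to 0.46 in the longest 621. Within number 2 these medians were -0.11 and 0.018. Lrp1 is among the longest genes, and its KO to WT ratios (0.31 in number 1, -0.38 in number 2) both lay below the medians of the 500 genes nearest in length, 0.45 and 0.026. Lrp4 was alike, with 0.19 against 0.37 and -0.49 against 0.031. Lrp12, of middle length, lay above its neighbours within number 1 (0.43 against 0.10) and below them within number 2 (-0.21 against 0.022). Once the trend with length was removed, the fitted log2 fold change of Lrp1 was -0.24 and that of Lrp5 was -0.15, both still short of the test's threshold.

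**Figure D5:**
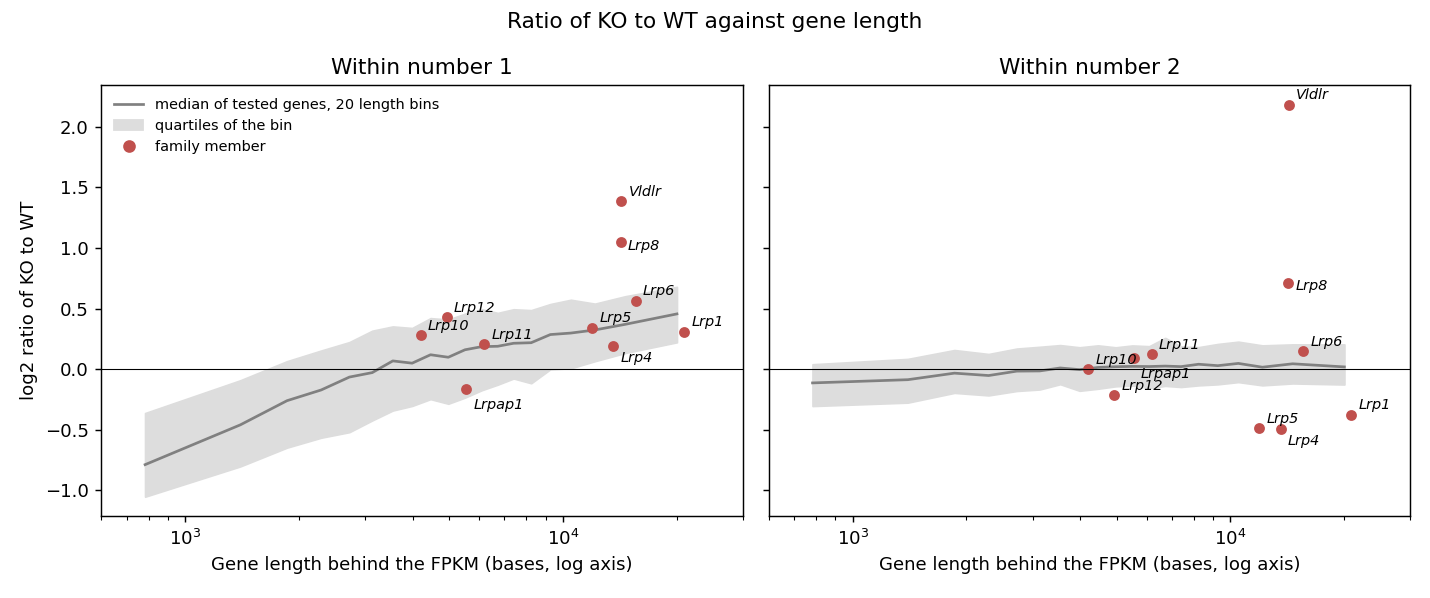
Log2 ratio of KO to WT within number 1 and within number 2 against the gene length behind the FPKM (log axis), as medians with quartiles over 20 bins of the tested genes and a point for each family gene. The medians rise from -0.79 to 0.46 within number 1 and stay between -0.11 and 0.047 within number 2, and Lrp1 lies below the curve in both.

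The 5 tested genes whose profile over the 4 libraries was most like that of Lrp1 were C430002N11Rik, AI607873, Tsen34, Pnpla6 and Zfp362. Likeness was the Euclidean distance between log2(CPM + 0.1) profiles, each centred on its own mean, and these distances ran from 0.0297 to 0.0836. C430002N11Rik lay under 1 CPM in every library. All 5 were highest in KO replicate 1 and lowest in KO replicate 2, as Lrp1 was. Within the family Lrp4 was nearest to Lrp1 at 0.326, followed by Lrp6 at 0.478, and Vldlr was farthest at 1.99. A distance over 4 libraries is a description and says nothing of shared control.

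Other LDL receptor family genes were low or did not separate by test. Of 9 such genes 5 were tested, and 0 were called. Their median log2 fold change was 0.54, with all 5 above 0. Lrp2, the megalin gene, had 11 and 12 WT counts and 58 and 49 KO counts, without overlap. Its log2 fold change of 1.96 (SE 0.41) had an unadjusted p of 0.00424 and an edgeR adjusted p of 0.289. Sorl1, a sorting receptor, had 424 and 340 WT counts and 723 and 604 KO counts, a difference of 0.55 (SE 0.25, edgeR adjusted p 0.831), also without overlap. Ldlrad3 had a difference of 0.54 (SE 0.41, edgeR adjusted p 0.933) with overlapping groups. The stromal marker sum was higher in KO as well, and its part in the values of Lrp2 and Sorl1 was not tested. Lrp3, with 0 and 1 WT counts and 5 and 6 KO counts, was too low to be tested, and Lrp1b, Ldlrad1 and Ldlrad2 were at 0 in every library.

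Ligands of LRP1 and its relatives were examined next. Of 49 ligand genes 35 were tested, 22 lay above 0 with a median of 0.12, and 0 were called. At an unadjusted p under 0.05 there were 7 higher and 2 lower in KO, where the backgrounds were 4.64% and 1.99%, and the KO libraries lay above WT in 12 and below in 5 (19.9% and 16.9% of all tested genes). Sparc, a matricellular glycoprotein, had 27.4 and 26.9 CPM in WT against 132 and 121 CPM in KO (log2 fold change 2.22, SE 0.23, edgeR adjusted p 0.216). Clu, the secreted chaperone clusterin, had 8.81 and 9.60 CPM in WT against 31.4 and 29.2 CPM in KO (1.72, SE 0.22, edgeR adjusted p 0.216). Timp3, an inhibitor of metalloproteinases that LRP1 internalises, had 63 and 79 WT counts and 321 and 263 KO counts (1.79, SE 0.30, edgeR adjusted p 0.250). None of these passed the test, and the groups did not overlap in any of them. The stromal marker sum also separated the genotypes, and its part in these values was not tested.

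Chaperones and proteases of the family formed a list of 18, of which 17 were tested. In it 14 lay above 0, the median was 0.12, 3 were higher at an unadjusted p under 0.05 and 0 were lower (4.64% and 1.99% of all tested genes), and 0 were called. Those 3 were Adam12, a metalloproteinase, with 18 and 31 WT counts and 139 and 128 KO counts, Bace1 with 23 and 20 against 77 and 42, and its paralogue Bace2 with 2 and 2 against 14 and 12. The cytoplasmic adaptors and sorting genes, which bind receptor tails, numbered 31 with 27 tested. Of these 17 lay above 0, the median was 0.12, 3 were higher and 0 were lower at an unadjusted p under 0.05 (again against 4.64% and 1.99%), and 0 were called. The engulfment adaptor Gulp1, which binds the tail of LRP1, had 1 and 3 WT counts and 22 and 23 KO counts, Mapk8ip1 had 16 and 21 against 68 and 70, and Apbb1 had 13 and 12 against 41 and 34. Each of these 6 genes was without overlap between genotypes, but they were picked for the smallest p, and most had few counts in WT. Over the whole lists, the KO libraries lay above WT in 5 and below in 1 of the 17 tested chaperones and proteases. Of the 27 tested adaptors and sorting genes they lay above in 8 and below in 3. The backgrounds were 19.9% above and 16.9% below.

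Of 48 Wnt partners of LRP5 and LRP6, 26 were tested, 24 lay above 0, the median was 0.19, and 0 were called. At an unadjusted p under 0.05 there were 4 higher and 0 lower (4.64% and 1.99% of all tested genes). The KO libraries lay above WT in 10 of the 26 and below in 0, against 19.9% and 16.9% of all tested genes. The Frizzled receptor Fzd8 had 3 and 4 WT counts and 21 and 12 KO counts, Fzd2 had 6 and 2 against 26 and 16, and Dkk3 had 16 and 10 against 80 and 29. Lrp6 had the same order as these 10 partners, and Lrp5 did not. The stromal marker sum separated the genotypes in the same direction, and its part in the values of the Wnt partners, chaperones, proteases and adaptors was not tested. Regulators of sterols and of receptor degradation showed 0 of 11 tested genes at an unadjusted p under 0.05 in either direction, with a median of 0.18. Mylip, the ubiquitin ligase IDOL that degrades VLDLR, had 217 and 127 WT counts and 340 and 205 KO counts (log2 fold change 0.42, SE 0.41, edgeR adjusted p 0.957). The values for Abca1 and Srebf1 were 0.72 (SE 0.81) and 0.18 (SE 0.23). Of the 7 SG-bound transcripts and readers, 0 had an unadjusted p under 0.05, and beside G3bp1 the smallest p belonged to its partner Caprin1 (-0.46, SE 0.29, edgeR adjusted p 0.904) and its paralogue G3bp2 (0.31, SE 0.23, edgeR adjusted p 0.930).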

How the data were processed

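The authors filtered reads, aligned them with HISAT2 (2.0.4) and counted them with StringTie (1.3.3b), per the labels and the study's methods. The deposited table held raw counts per gene and, beside each, the authors' FPKM, scaled by gene length and library total. The submitters' processing notes name mm39, but 27695 of the 34267 gene IDs also in GENCODE M21 had identical positions on GRCm38, as did 8 of the 10 family genes (Lrp10 and Lrp12 differed at an end), so positions are given as GRCm38. Use of strand in counting is not given in the sources used here.

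The analysis used edgeR 4.0.16 in R 4.3.3. Low genes were removed with filterByExpr (minimum count 10, minimum total 15), and 12418 of 17991 genes with a count remained. TMM scaling gave factors of 0.955 and 0.942 (WT) and 1.12 and 0.997 (KO). The quasi-likelihood fit (glmQLFit, glmQLFTest) had genotype as its single term, and its two-sided p were adjusted by Benjamini-Hochberg over all tested genes. Calls needed an adjusted p under 0.05 with a log2 change beyond 1 in either direction, as in the study. CPM used TMM-scaled totals, and ratios within a number had 0.5 counts added. An exact permutation test of 2 against 2 cannot go below p 0.333 and was not used. Between any pair of libraries the counts differed beyond sampling noise (chi-square over degrees of freedom 21.6 to 118), and none was treated as a duplicate. Without molecular identifiers, intervals cover counting error only. The code was tested on simulated data.

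The family, the pathway lists and the marker lists were written by hand with earlier results of these data known. Named genes were the family, G3bp1, up to 3 tested genes per pathway list with the smallest unadjusted p, and the 5 genes most like Lrp1. Dync1h1 and Igf2r are named because the study named them, and Gm10366 because it overlaps Lrp10. Lrp3 and the genes at 0 were chosen after their values were seen. Some items are not reported here. Alternatives were DESeq2 1.42.0 size factors and Wald test, other filters, the edgeR exact test, a replicate term, a gene length correction (loess span 0.5), no minimum fold change and each library left out.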

Additional observations from a re-analysis of the deposited data

How the results depend on the processing

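The count of 0 genes called over all genes, with 823 at an unadjusted p under 0.05, held with DESeq2 size factors, both other filters, the gene length correction and no minimum fold change. It was 181 in the DESeq2 Wald test, 229 in the edgeR exact test, 664 with the replicate block, 621 with the block plus length correction, and 0 to 1 with a library left out, where a lone library was assumed to vary like the other genotype. The labels do not say that the replicate number marks a batch. The deviations of same-numbered libraries correlated at 0.710 across genes, and the block lowered edgeR's common biological coefficient of variation to 0.169, from 0.343. Within the family 1 gene was called with the replicate block and 1 with the block and length correction, Vldlr each time (1.89 and 1.71, edgeR adjusted p 0.0182 and 0.0368), and 0 under the other alternatives. Vldlr was not tested at a mean CPM of at least 1. The block changed no other call in the family. The value of Lrp1, close to 0, turned to -0.028 with DESeq2 size factors and in the Wald test, -0.0046 with no filter, -0.034 with the block, -0.24 with the length correction and -0.27 with both. That of Lrp5 turned to -0.035, -0.15 and -0.22 in the last 3. With a library left out, values ran from -0.41 to 0.34 for Lrp1, -0.77 to 0.58 for Lrp5, -0.69 to 0.36 for Lrp4, -0.086 to 0.34 for Lrp10, -0.11 to 0.44 for Lrp11, -0.083 to 0.28 for Lrp12 and -0.15 to 0.046 for Lrpap1. The sign turned without WT replicate 1 for Lrp4, Lrp10, Lrp11, Lrp12 and Lrpap1, without WT replicate 2 for Lrp1 and Lrp5, without KO replicate 1 for Lrp1, Lrp5, Lrp12 and Lrpap1, and without KO replicate 2 for Lrp4 and Lrp11. The direction of Lrp6 (0.15 to 0.54), Lrp8 (0.49 to 1.26), Vldlr (1.43 to 2.27) and G3bp1 (-1.03 to -0.19) held in every alternative that tested them. For Lrp6, Lrp8 and Vldlr both KO libraries exceeded both WT libraries, as in 19.9% of tested genes. Leaving out a library could therefore hardly turn their sign. All alternatives reuse the same 4 libraries, so a kept direction is no separate evidence. The causes were not tested. Vldlr had under 40 counts in each library, so depth limits the precision of its level.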
